A study of Homo sapiens with 8 samples.

Results

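Growth factor receptors of the RET, ERBB, MET, KIT and FGF receptor families were followed in prostate cancer cells in which the transcription factor MYCL was raised or lowered. The 10 genes are RET, GFRA1, EGFR, ERBB2, ERBB3, MET, KIT, FGFR1, FGFR3 and FGFR4. They were chosen by gene name, with earlier results of these data known, and each has an entry among the 78691 genes of the count table. The study asked what MYCL does to lineage programs in prostate adenocarcinoma and neuroendocrine prostate cancer. It sequenced poly(A)-selected RNA from 4 conditions with 2 libraries each. C4-2B, a castration-resistant prostate adenocarcinoma line derived from LNCaP cells, carried a lentiviral vector that was either empty (control) or expressed human MYCL with EGFP from the EF1A promoter (MYCL). NCI-H660, a neuroendocrine prostate cancer line, carried a non-targeting shRNA (shCtrl) or shRNA against MYCL (shMYCL), delivered by an adenoviral vector according to the series description. Cell line and vector system therefore cannot be told apart in any difference between the lines. The titles call the C4-2B control libraries biological replicates and the others replicates, and name no parent culture, so p-values measure the spread between libraries, which may be technical.

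Receptor tyrosine kinases span the cell membrane, bind a ligand outside the cell and phosphorylate themselves and their partners inside it, which switches on the RAS-ERK and PI3K-AKT pathways. RET binds ligands of the GDNF family through a co-receptor such as GFRA1, which has no kinase domain. EGFR, ERBB2 and ERBB3 signal as pairs, in which ERBB2 has no known soluble ligand of its own and ERBB3 has little kinase activity. MET is the receptor of hepatocyte growth factor, KIT that of stem cell factor, and the FGF receptors bind fibroblast growth factors together with heparan sulfate or a klotho protein. In the prostate, ERBB2 and ERBB3 are known from luminal adenocarcinoma, whereas RET and KIT are known from neuroendocrine tumors of several organs.

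MYC-family proteins bind DNA with MAX, preferably at the E-box CACGTG. The promoter windows of RefSeq (GRCh38.p14, 250 bases before to 50 after a start site) were searched for this motif, which reads the same on either strand. Of 14 windows from 8 of the genes, 2 held CACGTG, which was in 7.26% of all 35116 windows. No window was searched for ERBB3, or for FGFR1, whose response to MYCL differed between the lines as did those of RET, EGFR and MET. CACGTG lay in the window of MET, where it begins at position 4 with the start site as position 1, and in that of the second start of FGFR4, where it begins 37 bases before the start. A match is a description of the letters and no sign of binding, and the absence of a match says only that the letters are not in the window. Sequences from 80 bases before to 20 bases after the start are shown for RET, EGFR and MET, whose responses to MYCL differed between the lines, for KIT, whose level differed most between them, and for the other window with the MYC-type motif, with CACGTG in capitals. They span chr10:43076989-43077088 (RET), chr7:55018937-55019036 (EGFR), chr7:116672116-116672215 (MET), chr4:54657877-54657976 (KIT) and chr5:177089470-177089569 (FGFR4, second start), all on the plus strand.
RET: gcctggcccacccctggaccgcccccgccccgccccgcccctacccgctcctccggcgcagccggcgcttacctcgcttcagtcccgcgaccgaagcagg
EGFR: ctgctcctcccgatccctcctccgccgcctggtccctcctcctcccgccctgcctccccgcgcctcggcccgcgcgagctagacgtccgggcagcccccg
MET: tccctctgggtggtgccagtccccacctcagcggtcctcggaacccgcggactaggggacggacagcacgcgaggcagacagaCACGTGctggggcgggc
KIT: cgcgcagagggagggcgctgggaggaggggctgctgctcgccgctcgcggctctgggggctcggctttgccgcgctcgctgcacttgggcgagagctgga
FGFR4: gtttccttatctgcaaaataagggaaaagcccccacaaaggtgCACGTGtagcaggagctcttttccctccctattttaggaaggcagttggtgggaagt

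The lines held the markers of their labels, with exceptions. In C4-2B libraries all 9 luminal markers had a TPM (a level per transcript length, scaled to the same sum in every library) of at least 1, and in NCI-H660 libraries 8 of 9 neuroendocrine markers did, SRRM4 being at no more than 3 counts. Of 6 stromal and immune markers, DCN, PTPRC, CD3E and PECAM1 were at no more than 3 counts in every library, while COL1A2 was at 22.4 to 39.8 TPM in NCI-H660. Library totals ran from 15177071 to 32344170 counts. The targeted gene behaved as labelled. MYCL had 371 and 320 counts in control against 65524 and 70253 in MYCL libraries of C4-2B, and 1863 and 1602 counts in shCtrl against 165 and 198 in shMYCL libraries of NCI-H660, a log2 fold change of −3.06 (SE 0.15, adjusted p = 4.29e-09, edgeR's quasi-likelihood test).

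The make-up of the 10 receptors differed between the lines. In C4-2B control cells ERBB3 was the most abundant per length at 44.6 ± 0.11 TPM (SD, n = 2), followed by ERBB2 at 25.3 ± 2.45 and EGFR at 19.6 ± 0.10 TPM. FGFR1 followed at 3.09 ± 0.49 TPM, FGFR3 at 2.00 ± 0.14, FGFR4 at 1.65 ± 0.37, MET at 1.12 ± 0.13 and RET at 0.46 ± 0.23 TPM, and GFRA1 and KIT had 0 counts. The ranges of FGFR3 and FGFR4 overlapped, and those of the other expressed neighbours in this order did not. In NCI-H660 shCtrl cells the order opened with KIT at 98.6 ± 20.5 TPM, followed by RET at 52.8 ± 4.0 and ERBB3 at 51.7 ± 1.18 TPM. RET and ERBB3 overlapped there, as did MET with FGFR3, FGFR3 with FGFR1, and FGFR4 with GFRA1. EGFR, at 13.8 ± 1.08 TPM, lay above ERBB2 at 9.28 ± 0.96 TPM, the reverse of their order in C4-2B. In bulk RNA, fewer cells with a transcript and less of it per cell cannot be told apart.

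**Figure D1:**
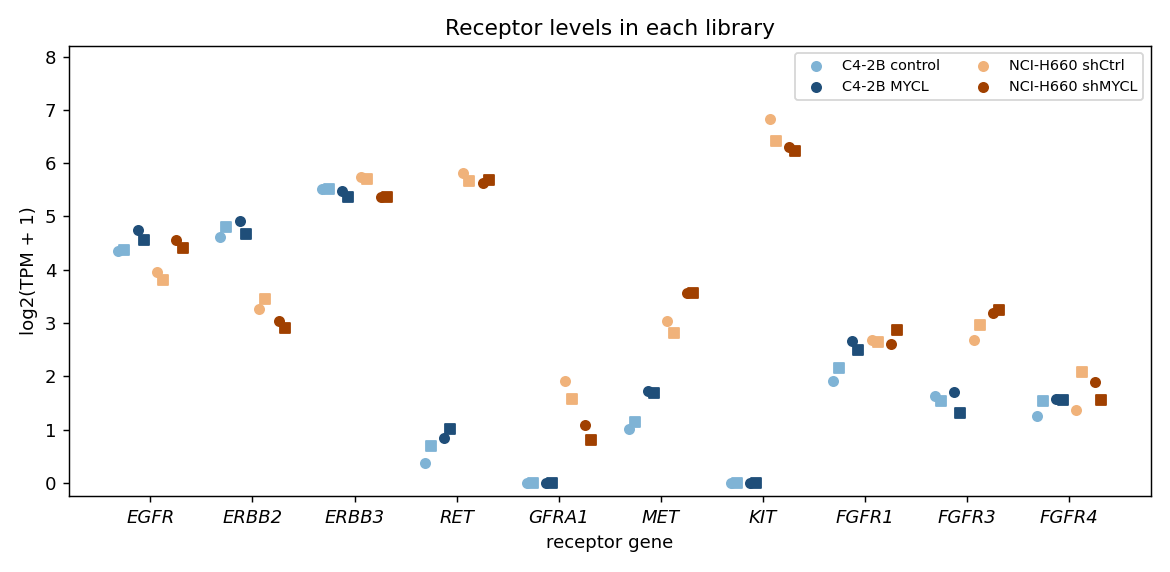
Level of each receptor as log2(TPM + 1) in each of the 8 libraries, with circles for replicate 1 and squares for replicate 2. ERBB3 lay at a similar height in all conditions, RET and KIT were high in NCI-H660 and low or at 0 in C4-2B, and MET was highest in the shMYCL libraries.

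Summed over the 10 genes, EGFR, ERBB2 and ERBB3 made up 91.5% ± 0.78 (SD, n = 2) of the TPM in C4-2B control and 88.6% ± 0.08 in MYCL libraries. In NCI-H660 they made up 30.2% ± 2.52 in shCtrl and 30.9% ± 0.64 in shMYCL libraries. KIT supplied 39.4% ± 4.24 and RET 21.2% ± 0.54 of the sum in shCtrl cells. The share of MET went from 1.14% ± 0.09 to 2.17% ± 0.14 between control and MYCL libraries of C4-2B, and from 2.67% ± 0.07 to 4.89% ± 0.09 between shCtrl and shMYCL libraries.

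**Figure D2:**
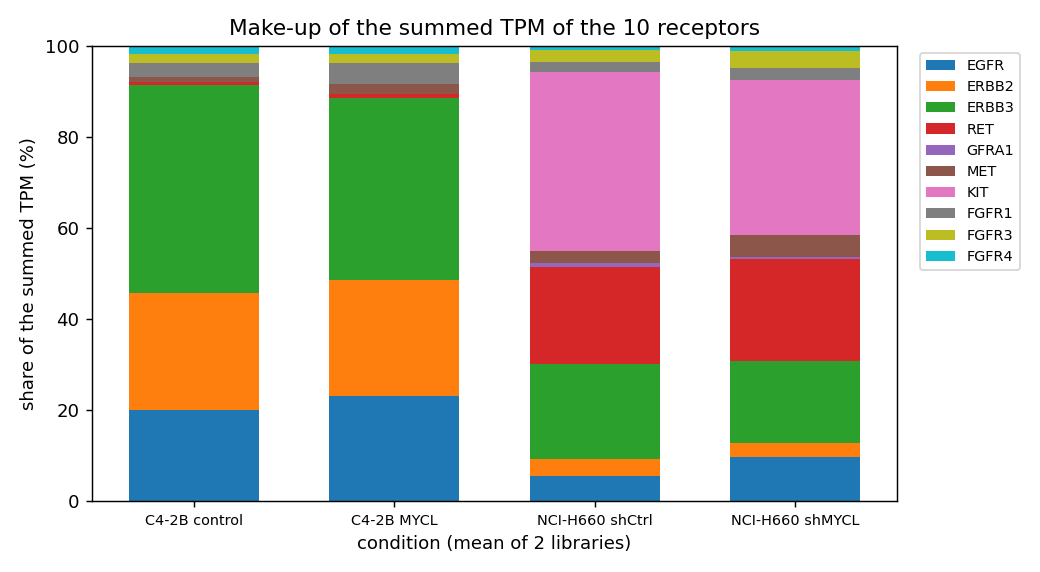
Share of each receptor in the summed TPM of the 10 receptors, as the mean of 2 libraries per condition. The ERBB genes fill 91.5% of the C4-2B control bar, and KIT and RET take 39.4% and 21.2% of the NCI-H660 shCtrl bar.

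The control cells of the lines were compared on counts, in a fit of those 4 libraries. Of 18748 genes tested, 71.6% were called, 37.4% higher and 34.2% lower in NCI-H660, where a call takes an adjusted p under 0.05 and a log2 fold change of 0.5 or more in either direction. A call is therefore the usual state of a gene in this comparison. The split of calls depended on scaling, with 52.2% of called genes higher on counts, 71.4% on log2(TPM + 1) and 44.5% when log2(TPM + 1) was centred on library medians, an alternative chosen after seeing the data. The median of all genes was 0.57 on log2(TPM + 1) and 0.04 on counts. Of the receptors, 5 were called higher in NCI-H660 and 2 lower, and GFRA1 and KIT passed the filter on low counts only through NCI-H660. EGFR and ERBB2, which can signal as a pair, were lower in NCI-H660, at log2 fold changes of −1.12 (SE 0.09, adjusted p = 1.87e-07) and −2.19 (SE 0.13, adjusted p = 1.35e-08). MET was higher by 1.98 (SE 0.16, adjusted p = 3.00e-07) and FGFR3 by 1.04 (SE 0.19, adjusted p = 3.53e-04). On log2(TPM + 1) the difference of EGFR was −0.48, under the minimum for a call. ERBB3, FGFR1 and FGFR4 were not called, at −0.24 (SE 0.08), 0.28 (SE 0.17) and 0.00 (SE 0.34). The direction of ERBB3 depended on the scale, since it was 0.21 on log2(TPM + 1) and −0.50 after centring. FGFR1 was 0.64 on log2(TPM + 1), past the threshold, and −0.07 after centring.

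**Figure D3:**
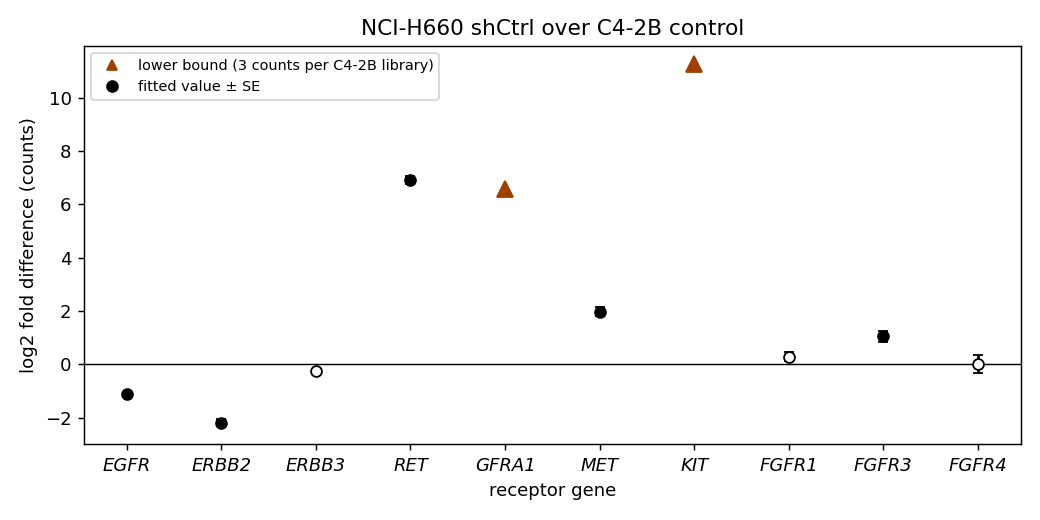
Log2 fold difference of each receptor between NCI-H660 shCtrl and C4-2B control cells on counts, with the SE as error bar and filled symbols for called genes. KIT and GFRA1 are drawn as triangles at the lower bound that 3 counts per C4-2B library give, log2 values of 11.25 and 6.56.

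RET (chr10:43077064-43130351, GENCODE 44 on hg38, ENSG00000165731.23) had 2610 and 2711 counts in shCtrl and 2112 and 2115 in shMYCL libraries, and 33 and 29 in control against 55 and 77 in MYCL libraries of C4-2B. Every NCI-H660 library was far above every C4-2B library. Between the control cells the log2 fold change was 6.92 (SE 0.14, adjusted p = 5.68e-12, edgeR's quasi-likelihood test), a 121-fold higher level in NCI-H660. As normalized CPM (counts scaled by library size with the TMM factors of a line), RET went from 1.12 ± 0.14 in control to 3.69 ± 1.00 in MYCL libraries (SD, n = 2 each) without overlap, and rose by 1.73 on the log2 scale (SE 0.34, adjusted p = 0.00457). The raised level in C4-2B still lay far below that of NCI-H660, at 0.91 ± 0.16 TPM against 52.8 ± 4.0 in shCtrl cells. MYCL knockdown was not accompanied by a called change of RET, at 150.4 ± 5.16 CPM in shCtrl and 137.1 ± 2.76 in shMYCL (SD, n = 2 each), with a difference of −0.13 on the log2 scale (SE 0.10, adjusted p = 0.369). The deposited TPM of RET in C4-2B carries an added uncertainty. The gene length implied by counts and TPM was 0.57 of the typical value in control replicate 2, against 1.00 to 1.14 in the other 7 libraries. Of 10448 genes with at least 50 counts in every library, 1.14% varied more. RET lies outside that set, and whether genes at its low counts vary as much was not tested. TPM was 0.30 and 0.63 in the control libraries, from 33 and 29 counts. RET was too low for the TPM filter, and without that filter its change on log2(TPM + 1) was 0.39 (adjusted p = 0.305, limma).

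GFRA1 (chr10:116056925-116276803, ENSG00000151892.17), the co-receptor that presents GDNF to RET, had 0 counts in all 4 C4-2B libraries, a result that still allows up to 3 counts in each. It had 217 and 192 counts in shCtrl and 60 and 64 in shMYCL libraries, with no overlap. The level in shCtrl cells was at least 94.6-fold higher than in C4-2B control cells, computed against 3 counts per C4-2B library. GFRA1 went from 11.6 ± 1.71 to 4.02 ± 0.10 CPM (SD, n = 2 each) with MYCL knockdown and fell by 1.53 on the log2 scale (SE 0.21, adjusted p = 9.40e-05), the largest change among the 10 receptors in that line. Leaving out any library kept the call, with log2 fold changes from −1.67 to −1.36. On TPM it was −0.80 with an adjusted p of 0.0878 (limma on log2(TPM + 1)), and the length implied for GFRA1 varied 1.59-fold between libraries. A further 3.95% of its exon bases lie opposite another gene, and the sources used here do not state whether counting used strand.

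EGFR (chr7:55019017-55211628, ENSG00000146648.22), the receptor of EGF and amphiregulin, had 158.6 and 156.8 CPM in control against 220.6 and 207.4 CPM in MYCL libraries. The groups did not overlap. The log2 fold change was 0.44 (SE 0.07, adjusted p = 0.00162), which passed the test and lay under the fold change set for a call. In NCI-H660 EGFR was at 83.0 and 79.9 CPM in shCtrl and 131.2 and 116.3 CPM in shMYCL libraries. It rose by 0.60 with knockdown (SE 0.11, adjusted p = 8.04e-04) and by 0.52 to 0.69 when a library was left out, each time past the threshold. EGFR-AS1 shares 1.17% of the exon bases of EGFR on the opposite strand.

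ERBB2 (chr17:39687914-39730426, ENSG00000141736.15) had 83.4 and 96.0 CPM in control against 111.9 and 100.4 CPM in MYCL libraries. Although the MYCL libraries were the higher ones, the change was not called, at 0.24 (SE 0.09, adjusted p = 0.0692). In NCI-H660 it had 19.6 and 24.4 CPM in shCtrl and 16.7 and 14.4 CPM in shMYCL libraries, and fell by 0.51 (SE 0.15, adjusted p = 0.0226). This call is at the edge of the threshold. It was lost in DESeq2 (−0.50, adjusted p = 0.120), without shCtrl replicate 2 (−0.34, adjusted p = 0.0879), without shMYCL replicate 2 (−0.40, adjusted p = 0.200) and on log2(TPM + 1) (−0.39, adjusted p = 0.137). MIEN1 and PGAP3 share 6.93% of the exon bases of ERBB2 on the opposite strand.

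ERBB3 (chr12:56076799-56103505, ENSG00000065361.18), the partner of ERBB2 that binds neuregulins, was among the 3 most abundant of the 10 receptors per length in every condition. It had 169.6 and 170.5 CPM in control against 177.8 and 172.8 CPM in MYCL libraries, a log2 fold change of 0.04 (SE 0.07, adjusted p = 0.656) that was −0.09 on log2(TPM + 1). In NCI-H660 it had 157.8 and 165.7 CPM in shCtrl and 125.3 and 128.7 CPM in shMYCL libraries. Both shMYCL libraries were below both shCtrl libraries, and the log2 fold change of −0.35 (SE 0.10, adjusted p = 0.0202) passed the test and not the minimum fold change.

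MET (chr7:116672196-116798377, ENSG00000105976.17), the receptor of hepatocyte growth factor, was higher in the perturbed libraries of both lines. It had 5.56 and 6.72 CPM in control against 13.7 and 14.2 CPM in MYCL libraries of C4-2B. In NCI-H660 it had 28.7 and 25.4 CPM in shCtrl and 43.4 and 44.1 CPM in shMYCL libraries. MET thus rose where MYCL was raised, by 1.19 (SE 0.15, adjusted p = 5.63e-04), and also where MYCL was lowered, by 0.70 (SE 0.12, adjusted p = 7.45e-04). Leaving out any library gave 1.05 to 1.32 in C4-2B and 0.61 to 0.79 in NCI-H660, with all calls held. No exon base of MET is shared with another gene. The ligand HGF had no more than 3 counts in every library.

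KIT (chr4:54657267-54740783, ENSG00000157404.18), the stem cell factor receptor, was the most abundant of the 10 in NCI-H660 and had 0 counts in all 4 C4-2B libraries. The level in shCtrl cells was at least 2443-fold higher than in C4-2B control cells, computed against 3 counts per C4-2B library. KIT had 333.9 and 264.8 CPM in shCtrl and 234.9 and 223.2 CPM in shMYCL libraries. The shMYCL libraries were the lower ones, at a log2 fold change of −0.39 (SE 0.12, adjusted p = 0.0249) that was not large enough for a call. The spread lay in the shCtrl pair, and the size of the change depended on it, at −0.54 without shCtrl replicate 2, which was called (adjusted p = 1.08e-04), and −0.20 without shCtrl replicate 1 (adjusted p = 0.191). Without shMYCL replicate 1 or 2 the adjusted p was 0.0679 and 0.142. Its ligand KITLG had 3235 and 3123 counts in shCtrl and 107 and 68 in C4-2B control libraries, a log2 fold change of 5.69 (SE 0.13, adjusted p = 1.05e-11).

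Of the FGF receptors, FGFR1 (chr8:38400215-38468834, ENSG00000077782.24) was called in C4-2B. It had 8.56 and 10.4 CPM in control against 16.8 and 16.1 CPM in MYCL libraries and rose by 0.80 (SE 0.14, adjusted p = 0.00218), with 0.65 to 0.94 when a library was left out. In NCI-H660 the groups overlapped, with 12.9 and 13.0 CPM in shCtrl and 12.5 and 13.8 CPM in shMYCL libraries, and the log2 fold change was 0.02 (SE 0.15, adjusted p = 0.938). On the opposite strand, 3.05% of its exon bases are shared with other genes. After overexpression FGFR1 stood at 4.99 ± 0.50 TPM in C4-2B, beside 5.35 ± 0.13 TPM in shCtrl cells (SD, n = 2 each), while as CPM in the fit of all 8 libraries it was at 17.3 in the former and 12.3 in the latter.

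FGFR3 (chr4:1793293-1808872, ENSG00000068078.21) had 6.79 and 6.09 CPM in control against 7.81 and 5.66 CPM in MYCL libraries, overlapping groups with a log2 fold change of 0.06 (SE 0.21). In NCI-H660 it had 12.9 and 17.0 CPM in shCtrl and 19.9 and 21.1 CPM in shMYCL libraries. The change of 0.46 (SE 0.15, adjusted p = 0.0400) was under the minimum, and did not pass the test in DESeq2 (adjusted p = 0.162). It was 0.67 and called without shCtrl replicate 2 (adjusted p = 4.61e-04), and 0.28 without shCtrl replicate 1 (adjusted p = 0.168). FGFR4 (chr5:177086905-177098144, ENSG00000160867.16) rests on few counts, with 97 and 93 in control, 84 and 89 in MYCL, 42 and 96 in shCtrl and 66 and 50 in shMYCL libraries. The spread of the shCtrl pair covered both shMYCL libraries. Its log2 fold changes were 0.49 (SE 0.25, adjusted p = 0.159) in C4-2B and −0.03 (SE 0.34, adjusted p = 0.960) in NCI-H660, and leaving out a library moved the latter between −0.46 and 0.60.

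**Figure D4:**
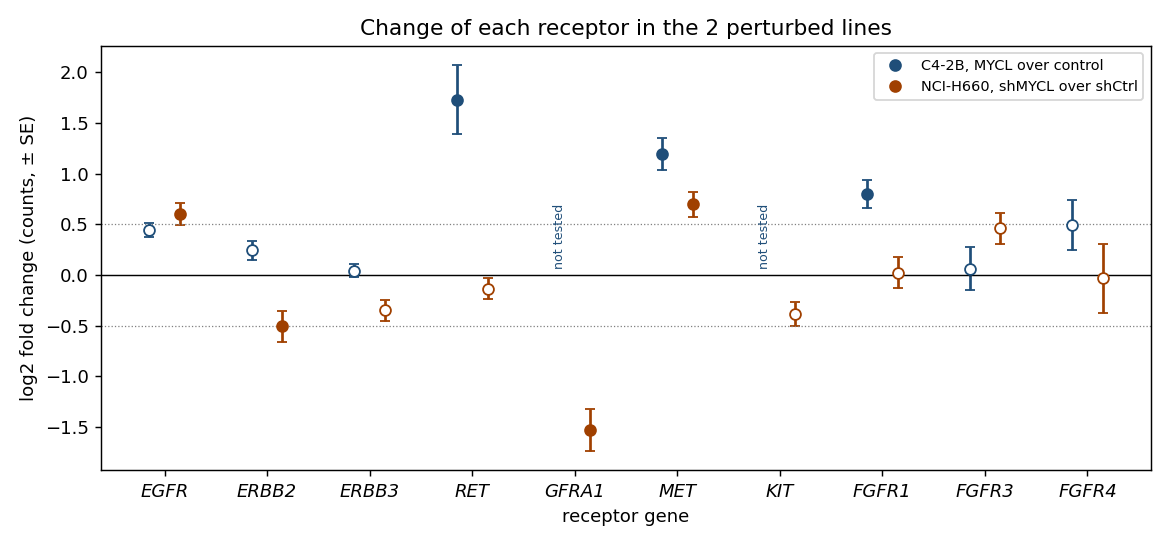
Log2 fold change of each receptor on counts with its SE, for MYCL over control in C4-2B and shMYCL over shCtrl in NCI-H660, with filled symbols for called genes and dotted lines at the minimum fold change of 0.5. MET lies above 0.5 in both lines, RET and FGFR1 only in C4-2B, and GFRA1 stands lowest at −1.53 in NCI-H660.

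Counted together, 3 of the 8 receptors tested in C4-2B were called, each higher, where 19.9% of 16866 genes were called and 11.8% were called higher. The median log2 fold change was 0.47 over the 8 receptors and 0.00 over all genes tested. In NCI-H660, 2 of 10 receptors were called higher and 2 lower, where the share of 16980 genes called was 16.2% (7.18% higher, 8.99% lower). The receptors' median there was −0.08. Because the receptors were chosen with earlier results of these data known, these counts and medians describe them and are no test. On counts 59.2% of the called genes in C4-2B were higher, against 33.5% on log2(TPM + 1), which placed the median of all genes at −0.14, and 60.7% after centring. MET and FGFR1 were also called in C4-2B on filtered log2(TPM + 1), with and without centring. Other measures moved with the groups. The summed TPM of the 9 luminal markers was 2830.2 to 2864 in control and 2138 to 2173 in MYCL libraries, where SLC45A3 and KLK3 fell among 9 tested, and 2 higher and 5 lower ones passed the adjusted p alone. In NCI-H660 their sum was 1268.1 to 1273 TPM in shCtrl and 1394.3 to 1421 in shMYCL libraries, without overlap, and of 4 tested 0 were called by edgeR or DESeq2, with 2 at an unadjusted p under 0.05 in edgeR, of which 1, higher, passed the adjusted p. The 9 neuroendocrine markers summed to 584.3 to 593.9 TPM in shCtrl and 609.3 to 702.3 in shMYCL libraries, where INSM1 fell among 8 tested. In edgeR 2 higher and 2 lower ones, INSM1 among the latter, passed the adjusted p, and neither edgeR nor DESeq2 called one higher. Per gene, SCG3 went from 163.1 and 152.2 to 191.4 and 218.9 TPM, and CHGB from 124.6 and 121.6 to 149.5 and 185.2. INSM1 went from 37.1 and 35.4 to 22.3 and 24.2 TPM, and DLL3 from 22.4 and 23.0 to 15.6 and 16.5. CHGA and NCAM1 were lower in both shMYCL libraries too, and SYP and FOXA2 overlapped between the groups. COL1A2 fell with knockdown too, the called member of the 2 stromal markers tested. Mitochondrial genes took 9.63% to 9.67% of counts in control and 10.2% to 10.7% in MYCL libraries. In NCI-H660 they took 3.50% to 3.52% in shCtrl and 3.69% to 3.83% in shMYCL libraries. Depth differed too in C4-2B, with totals of 32344170 and 23489171 counts in control against 18278753 and 18090296 in MYCL libraries. The part of these measures in the receptor values was not tested.

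The effect of higher MYCL was compared between the lines as MYCL over control in C4-2B minus shCtrl over shMYCL in NCI-H660, in a fit of all 8 libraries. These are the libraries of the within-line comparisons, so the result is not a further set of data. MYCL itself changed by 8.26 (log2) for MYCL over control in C4-2B and by −3.06 for shMYCL over shCtrl in NCI-H660. The compared effects thus rest on MYCL changes of unlike size, which cannot be told apart from a difference between the lines. Of 19605 genes, 17.9% were called, 9.59% with a more positive effect in C4-2B. Among the 8 receptors with a defined difference, 4 were called, each more positive in C4-2B. MET differed by 1.89 (SE 0.18, adjusted p = 3.43e-05), RET by 1.60 (SE 0.25, adjusted p = 8.48e-04), EGFR by 1.04 (SE 0.12, adjusted p = 1.35e-04) and FGFR1 by 0.82 (SE 0.21, adjusted p = 0.0141). For MET and EGFR the fitted effects of higher MYCL had opposite signs in the lines, though the change of EGFR in C4-2B was under the fold minimum. For RET and FGFR1 a change was called in C4-2B and none in NCI-H660. The call of RET was lost on TPM, where the difference was 0.29 to 0.80 with adjusted p from 0.219 to 0.477 (limma). The call of FGFR1 was lost on uncentred TPM, without C4-2B control replicate 1 (0.67, adjusted p = 0.0765) and without shMYCL replicate 2. ERBB2 (−0.27, SE 0.18), ERBB3 (−0.31, SE 0.11), FGFR3 (0.52, SE 0.26) and FGFR4 (0.46, SE 0.48) were not called. GFRA1 and KIT have no defined difference because C4-2B was at 0.

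Ligands and partners of the receptors were taken from lists compiled by function. Beside the counts of every list stand the shares of all genes tested. With MYCL in C4-2B, 19.9% were called (11.8% higher). With knockdown in NCI-H660, 16.2% were called (7.18% higher, 8.99% lower). Of 11 RET ligands and co-receptors, 5 were tested in C4-2B and 1 rose, and 8 were tested in NCI-H660 and 1 fell. Both were GDF15, the ligand of the RET co-receptor GFRAL. GDF15 had 1412 and 1014 counts in control against 5470 and 5644 in MYCL libraries, and rose by 2.85 (SE 0.08, adjusted p = 4.56e-07). In NCI-H660 it had 1258 and 2076 counts in shCtrl and 863 and 786 in shMYCL libraries, and fell by 0.80 (SE 0.15, adjusted p = 0.00146). GFRAL had no more than 3 counts in every library. Between the control cells, NCAM1, an alternative GDNF co-receptor, and GFRA2, the neurturin co-receptor, had 0 counts in both C4-2B libraries, while shCtrl libraries had 2666 and 2946 counts of NCAM1 and 55 and 67 of GFRA2. Neurturin itself (NRTN) had 8 and 3 counts in C4-2B control and 49 and 99 in shCtrl libraries, a log2 fold change of 4.22 (SE 0.51, adjusted p = 1.14e-05). In all, 6 of 8 tested genes of the list were called, each higher in NCI-H660, where 71.6% of all genes were called and 37.4% called higher. NCAM1 and GFRA2 passed the filter on low counts only through NCI-H660.

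Of 12 ERBB ligands with ERBB4, 4 were tested in C4-2B, of which EGF rose by 0.76 (SE 0.10, adjusted p = 5.95e-04) and HBEGF by 0.72 (SE 0.20, adjusted p = 0.0196), the latter not called in DESeq2. In NCI-H660, 1 of 8 tested was called. This was AREG, encoding amphiregulin, which had 226 and 246 counts in shCtrl and 426 and 402 in shMYCL libraries and rose by 1.01 (SE 0.14, adjusted p = 8.00e-05). AREG, BTC and NRG1 had 0 counts in all 4 C4-2B libraries. NRG1, a ligand of ERBB3, had 104 and 73 counts in shCtrl libraries. Of 9 genes tested between the control cells, 6 were higher and 3 lower in NCI-H660, the latter NRG4, EGF and HBEGF, beside 37.4% and 34.2% of all genes. AREG, BTC and NRG1 passed the filter only through NCI-H660.

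Of 11 ligands and partners of MET, RON and KIT, 2 of 8 tested rose in C4-2B and 0 of 9 were called in NCI-H660 by edgeR or DESeq2. There 3 passed the adjusted p in edgeR and lay under the fold minimum (also the 3 at an unadjusted p under 0.05), KITLG at 0.31 (adjusted p = 0.0440), SPINT2 at −0.46 (adjusted p = 0.00767) and ST14 at −0.40 (adjusted p = 0.0101). MST1, the RON ligand, had 46 and 26 counts in control against 90 and 70 in MYCL libraries and rose by 1.81 (SE 0.30, adjusted p = 0.00206). SPINT2, an inhibitor of the proteases that activate hepatocyte growth factor, rose by 0.51 (SE 0.09, adjusted p = 0.00284). MST1R, which encodes RON, had 10 and 11 counts in C4-2B control and 542 and 591 in shCtrl libraries, a log2 fold change of 6.23 (SE 0.23, adjusted p = 2.82e-10).

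Of 28 genes of the FGF list, 7 were tested in C4-2B, with FGF21 higher and FGFRL1 lower, and 13 in NCI-H660, with 4 higher and 1 lower (4 and 0 in DESeq2). The lower one was FGF1, at −1.09 (SE 0.35, adjusted p = 0.0338). Among all genes tested, edgeR called 19.9% in C4-2B in either direction (11.8% higher), and 7.18% higher and 8.99% lower in NCI-H660. FGF21, an endocrine FGF that acts with beta-klotho, had 8 and 3 counts in control against 82 and 172 in MYCL libraries, a log2 fold change of 5.17 (SE 0.52, adjusted p = 1.85e-04). FGFRL1, an FGF receptor without a kinase domain, moved against MYCL in each line. It had 1644 and 1184 counts in control against 487 and 488 in MYCL libraries and fell by 0.88 (SE 0.08, adjusted p = 1.43e-04). In NCI-H660 it had 124 and 171 counts in shCtrl and 372 and 395 in shMYCL libraries and rose by 1.58 (SE 0.16, adjusted p = 5.18e-06). FGFBP1, a carrier that releases FGFs from the matrix, rose by 1.38 with knockdown (SE 0.32, adjusted p = 0.00609), and FGF7 had 2 and 1 counts in shCtrl and 30 and 26 in shMYCL libraries. FGF9, at 521 and 531 counts in shCtrl libraries, was at 0 in C4-2B.

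Of 37 adaptors and negative regulators, 33 were tested in C4-2B, with 9 higher and 2 lower (5 and 1 in DESeq2), and 36 in NCI-H660, with 2 higher and 2 lower (1 and 1 in DESeq2). Among all genes tested, edgeR called 19.9% in C4-2B (11.8% higher) and 16.2% in NCI-H660 (7.18% higher, 8.99% lower). DOK3, a docking protein that dampens signaling, had 127 and 75 counts in control against 7 and 7 in MYCL libraries and fell by 3.16 (SE 0.37, adjusted p = 3.65e-04). The adaptors SHC4 and SHC3 changed at low counts, SHC4 from 22 and 21 to 4 and 2 counts (adjusted p = 0.0278) and SHC3 from 8 and 2 to 13 and 12 counts (adjusted p = 0.0479). LRIG1, which promotes degradation of ERBB receptors, fell by 0.91 with knockdown (SE 0.11, adjusted p = 3.78e-05), and the adaptor GRB14 rose by 1.03 (SE 0.34, adjusted p = 0.0361).

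Among 35 other receptor tyrosine kinases, 1 of 17 tested rose and 2 fell in C4-2B, and in NCI-H660 5 of 22 rose in edgeR and 3 in DESeq2, while 0 fell in either tool and 0 were lower at an unadjusted p under 0.05. Their median log2 fold changes were 0.15 and 0.22, against 0.47 and −0.08 for the 10 receptors. This difference between the lists was not tested. Among all genes tested, edgeR called 19.9% in C4-2B in either direction (11.8% higher), and 7.18% higher and 8.99% lower in NCI-H660. IGF1R, the IGF1 receptor, had 6948 and 5037 counts in control against 2073 and 1603 in MYCL libraries and fell by 1.06 (SE 0.10, adjusted p = 1.15e-04). DDR2, a collagen receptor, fell by 0.95 in C4-2B with MYCL (SE 0.16, adjusted p = 0.00203) and rose by 1.07 in NCI-H660 with knockdown (SE 0.38, adjusted p = 0.0497). ALK had 121 and 108 counts in shCtrl and 286 and 311 in shMYCL libraries and rose by 1.58 (SE 0.17, adjusted p = 1.07e-05), and INSRR rose by 1.39 (SE 0.44, adjusted p = 0.0291). ROR2, a receptor of WNT5A, had 0 and 1 counts in control against 15 and 18 in MYCL libraries.

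**Figure D5:**
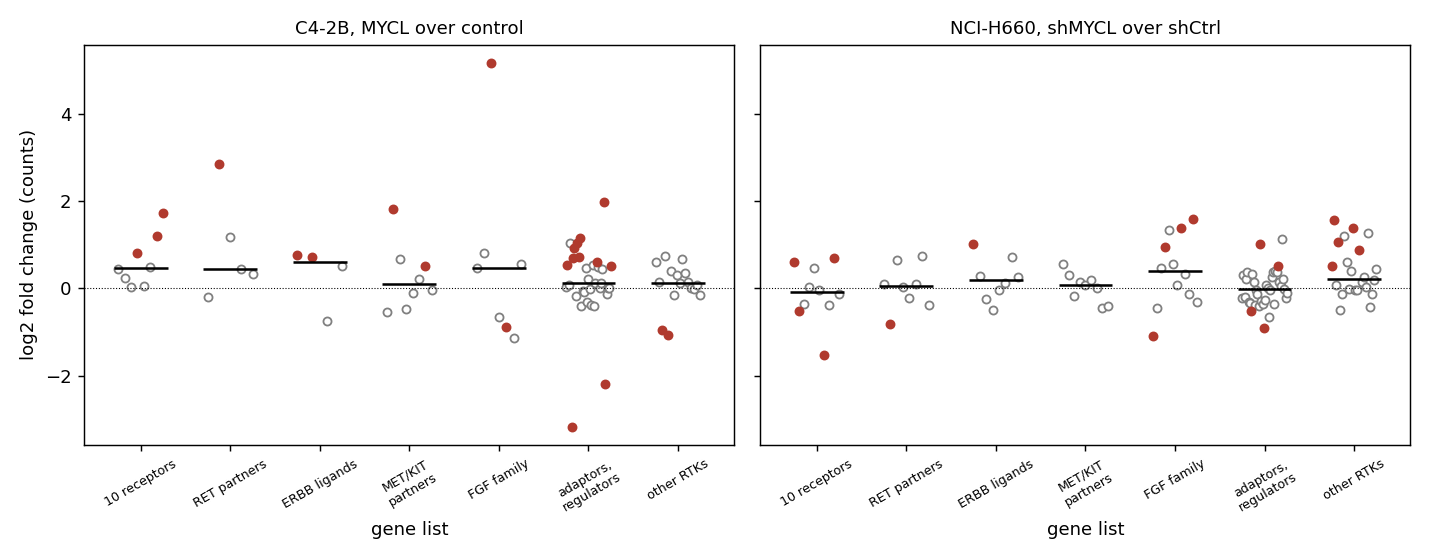
Log2 fold changes on counts of the receptors and of each list of ligands, partners and regulators, with red points for called genes, open points for others and a bar at the median of the points drawn. ROR2 in C4-2B and FGF7 in NCI-H660 are left out of the plot because a group had no more than 3 counts per library, and FGF21 (5.17) and GDF15 (2.85) stand highest in C4-2B.

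The genes nearest in pattern were found by the Euclidean distance between the 4 condition means of log2 CPM, each gene centred on its own mean, over 19604 other genes. For RET these were SCN8A, a neuronal sodium channel subunit, at a distance of 0.16, SH3RF3 at 0.20 and RNF217 at 0.25. For MET, called in both lines, they were LRRC24 at 0.14, S100A2 at 0.19 and DAAM2 at 0.20. The distances rest on 4 condition means and describe likeness of level only.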

How the data were processed

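RNA-seq of 8 libraries (4 groups of 2, grouped by cell line and treatment in the labels) was analysed. The authors deposited estimated counts per gene, without normalization between libraries, of which 34.4% of non-zero values are not whole, and a table of TPM values, which they describe as counts over gene length scaled per library. The TPM table holds 65535 genes against 78691 in the count table, so fits on TPM leave out genes that counts include. Its sums per library ran from 997224 to 998165. The submitters' processing notes name the build hg38, and the aligner is not given in the sources used here. The totals of 15177071 to 32344170 counts limit the precision of low genes, and 3 counts per library were taken as the floor of a value of 0.

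Counts were rounded and tested in edgeR 4.0.16 (R 4.3.3) with TMM, filterByExpr and its quasi-likelihood test, with Benjamini-Hochberg adjustment across all tested genes, each line on its own, the control groups together and the difference between lines on all groups. Calls needed an adjusted p under 0.05 with a log2 fold change of 0.5 or more in either direction. With 2 libraries against 2, an exact permutation test cannot go below p = 0.333, so the tests rest on the spread shared between genes. A difference between lines was left undefined where a line had no more than 3 counts in every library. The edgeR test was tested on simulated data. Alternatives used DESeq2 1.42.0, other size factors and filters, a replicate block, limma 3.58.1 on log2(TPM + 1) or log2(TPM + 0.1) and left-out libraries. Receptors and lists were chosen with earlier results of these data known. The genes named from a list are at most 3 called genes per comparison, those with the largest absolute change and a mean of at least 10 counts in a group, and the genes nearest in pattern are given for RET and for receptors called in both lines. The sums and counts of markers leave out 2 markers that are not reported here. Genes outside that rule (HGF, GFRAL, NRG4, FGF1, KITLG and ST14 in NCI-H660 with knockdown, and the markers) were named after their values were seen. Positions and overlaps are from GENCODE 44, and promoters from RefSeq.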

Additional observations from a re-analysis of the deposited data

Results flagged for a closer look

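The effect of higher MYCL differed between the lines for 4 receptors, by an interaction term in edgeR's quasi-likelihood test over all 8 libraries. For MET the difference was 1.89 (log2), from 1.19 for MYCL over control in C4-2B and 0.70 for shMYCL over shCtrl in NCI-H660, so that it was higher with MYCL raised and with MYCL lowered. For EGFR the difference was 1.04, from 0.44 and 0.60 in the same comparisons. For RET it was 1.60, from 1.73 and −0.13, and for FGFR1 it was 0.82, from 0.80 and 0.02. The lines differ in vector system, in origin, and in the way and extent to which MYCL was changed, and these cannot be told apart. No other check for single outlying libraries applied, since each group holds 2 libraries.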

How the results depend on the processing

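Of 523 alternative values for single genes, 467 kept their direction and side of the threshold, 27 kept only the direction, 6 passed the threshold newly and 23 changed sign. The sign changes concern ERBB3, FGFR1, FGFR3 and FGFR4, each in a comparison in which it was not called. In C4-2B, ERBB3 was −0.088 on log2(TPM + 1), with or without the filter, and −0.090 on log2(TPM + 0.1), FGFR3 was −0.074 and −0.12 in the same fits, and leaving out a library moved FGFR3 between −0.18 and 0.27. In NCI-H660, FGFR4 was 0.018 on log2(TPM + 0.1), 8.1e-04 on log2(TPM + 1) with or without the filter, 0.026 with the replicate block, and −0.46 to 0.60 with a library left out, which moved FGFR1 between −0.049 and 0.10. Between control cells, ERBB3 was 0.21 in each uncentred TPM fit, FGFR4 was −0.079 with the replicate block, −0.38 after centring and −0.60 to 0.45 with a library left out, and FGFR1 was −0.071 after centring. Receptors called went from 3 to 0 in C4-2B on unfiltered log2(TPM + 1), where 1940 genes were called in place of 3355. In NCI-H660 they went from 4 to 2 on log2(TPM + 1), log2(TPM + 0.1) and after centring, and to 0 unfiltered, with 1702, 1600, 1692 and 1 gene called in place of 2745, and 1737 in DESeq2. For the difference between lines they went from 4 to 2 in the 3 uncentred TPM fits, which lost RET and FGFR1, with 1898 genes called unfiltered in place of 3513. A minimum of 10 counts in every library left 8934 called genes of 13427 between control cells, since fewer genes were tested. The cause of the other shifts was not tested. Calls by adjusted p alone gave 4 receptors in C4-2B in place of 3 and 7 in NCI-H660 in place of 4 (3 higher, 4 lower), while genes called went to 5895 and 4204. They gave 2 genes of the list of RET ligands and co-receptors in each line in place of 1. Adaptors and regulators went to 17 and 9 in place of 11 and 4. MET, RON and KIT ligands and partners went to 3 in NCI-H660 and 1 in the difference between lines, in place of 0. Same-numbered libraries did not deviate together (correlations 0.03, 0.05 and 0.02 across genes). With 2 libraries per group this cannot show whether they were prepared in pairs. The replicate block left 3, 4, 7 and 4 receptors called, as without it. With 2 libraries per group, changes under the fold minimum, such as those of KIT and FGFR3, cannot be placed on either side of it.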
